A study of Cavia porcellus with 12 samples.

Results

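*P4HA1*, *PLOD2*, *SERPINH1*, *LOXL1* and *LOXL2* serve the folding and crosslinking of collagen, and all 5 were looked up by symbol among the 11896 human orthologue symbols of the deposited liver expression table. *SERPINH1* encodes a chaperone and the other 4 encode enzymes. Each was found once, and each stood alone on its row of the count table. RNA came from the left lateral liver lobe of 12 female Dunkin Hartley guinea pigs of 1 breeder, which entered the study as young adults. 6 NASH animals had eaten a high-fat diet with added sucrose and cholesterol for 25 weeks, and 6 control animals had eaten chow for the same time. The NASH animals had been picked for bridging fibrosis and the controls at random among animals with neither NASH nor fibrosis, so the contrast holds diet and disease together, and the livers had not been perfused.

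Collagen is folded in the endoplasmic reticulum and tied together outside the cell. Prolyl 4-hydroxylase, whose catalytic alpha subunit *P4HA1* encodes, hydroxylates prolines so that the triple helix is stable at body temperature, and lysyl hydroxylase 2, the product of *PLOD2*, hydroxylates lysines of the telopeptides, which directs later crosslinks to the hydroxylysine type. Heat shock protein 47, the product of *SERPINH1*, binds the finished helix and keeps it from aggregating on its way to the Golgi. In the matrix, the copper enzymes of the lysyl oxidase family oxidise lysines and so begin crosslinking. *LOXL1* is best known for elastic fibres and *LOXL2* for collagen, including that of basement membranes. The hydroxylases need iron and ascorbate, which guinea pigs, like humans, cannot synthesise. In fibrotic liver, activated stellate cells and portal fibroblasts are the main source of this machinery.

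Depth was 16980274 to 33091460 counts per animal. Levels are given in CPM, the read count of a gene relative to the library total, which was scaled by edgeR's TMM method, and a gene was called when the Benjamini-Hochberg adjusted p-value of edgeR's quasi-likelihood test over all 11896 symbols was under 0.05. By this rule 53.9% of all symbols were called, 27.9% as higher and 26% as lower in NASH. All NASH animals lay above all controls in 18.4% of symbols. With library size alone in place of TMM, the median log2 fold change of all symbols moved from 0 to 0.48, and 7603 symbols were higher and 911 lower instead of 3318 and 3093. Of the hepatocyte markers fixed for this work, 7 of 8 were in the table and all 7 were lower in NASH under TMM, from −0.58 for *APOB* to −2.2 for *TTR* on the log2 scale, and 5 with library size alone. Their summed level was 101000 to 125000 CPM in controls and 41800 to 64100 CPM in NASH. The share of hepatocytes in the tissue was not tested. Control animal 5 stood apart more often than the other animals. It was a lone low value in 3.27% of symbols, against 0.555 to 1.12% in each of the others.

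Of the 5 genes, 4 were higher in NASH and 1, *P4HA1*, was not called, where 53.9% of all symbols were called and 27.9% were called higher. The fold changes ran from 1.25 for *P4HA1* through 2.32 for *PLOD2*, 2.43 for *LOXL2* and 2.62 for *SERPINH1* to 6.48 for *LOXL1*. In *SERPINH1*, *LOXL1* and *LOXL2* every NASH animal lay above every control, whereas the groups overlapped in *PLOD2* and *P4HA1*. A rise of at least 1 on the log2 scale was passed by the 4 called genes, and by 12.8% of all symbols. In whole liver tissue, more cells that express a gene cannot be told apart from more RNA per cell.

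**Figure D1:**
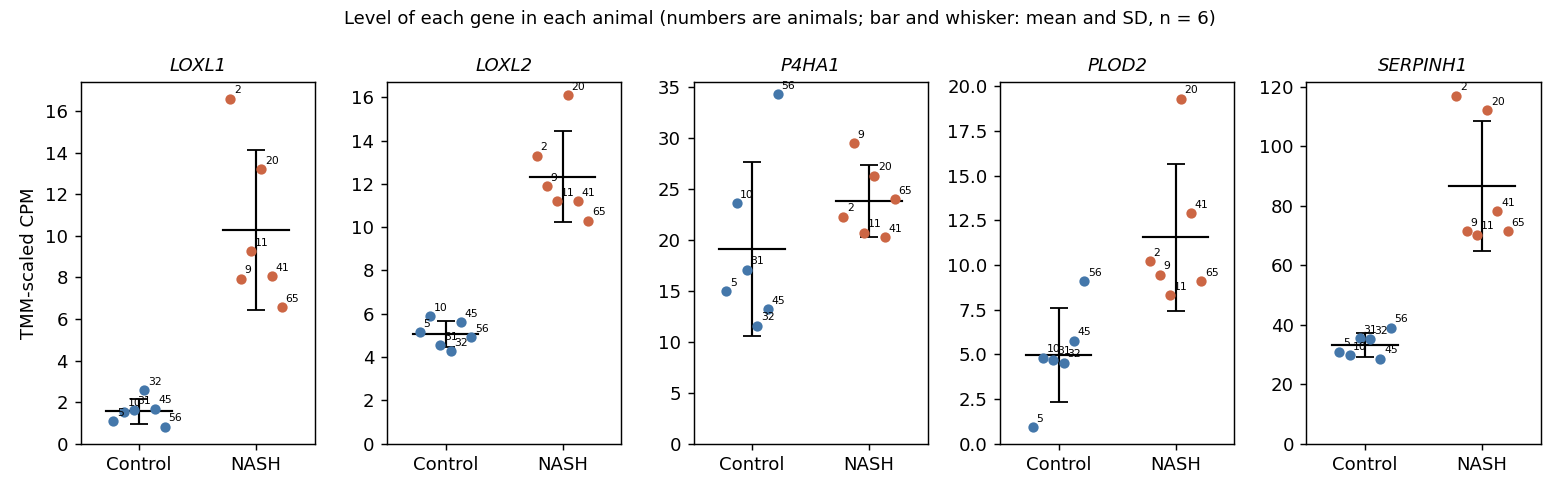
TMM-scaled CPM (vertical axis, from 0) of the 5 genes in 6 control and 6 NASH animals. Points are animals with their numbers, and the bar and whisker give the mean and SD. The NASH points of *SERPINH1*, *LOXL1* and *LOXL2* all lie above the control points, the control animals 5 and 56 spread *PLOD2* from 0.929 to 9.09 CPM, and control animal 56 has the highest *P4HA1* of all 12 animals.

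*SERPINH1*, the collagen chaperone, was the most evenly expressed of the 5 in controls together with *LOXL2*. Its lowest, median and highest levels were 28.5, 33 and 39 CPM in controls and 70.2, 74.7 and 117 CPM in NASH. No values overlapped, and the lowest NASH animal stood 1.8 times above the highest control. The means were 33.1 ± 4.03 and 86.7 ± 21.8 CPM (SD, n = 6 each), or 1.39 ± 0.15 (SE) as a log2 fold change (adjusted p = 8.33e-06, edgeR). NASH animals 2 and 20, at 117 and 112 CPM, were apart from the other 4, which lay between 70.2 and 78.1 CPM. Between 432 and 3595 reads per animal stood behind these values. On the deposited rlog scale, a log2 scale that pulls poorly counted genes towards their mean, the means were 9.94 ± 0.1 and 10.79 ± 0.23 (SD, n = 6 each).

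*P4HA1*, the main catalytic alpha subunit of collagen prolyl 4-hydroxylase, did not pass the test. Its lowest, median and highest levels were 11.6, 16 and 34.3 CPM in controls and 20.3, 23.2 and 29.5 CPM in NASH. The 2 highest controls, animals 56 and 10 at 34.3 and 23.6 CPM, lay among or above the NASH animals, and the other 4 controls lay below all of them. The means were 19.1 ± 8.53 and 23.8 ± 3.55 CPM (SD, n = 6 each), or 0.32 ± 0.235 (SE) as a log2 fold change (adjusted p = 0.271, edgeR). The spread between animals was 44.6% of the mean in controls and 14.9% in NASH. Among single animals, the missing call rested on control animal 56. Without it the log2 fold change was 0.57 (adjusted p = 0.0164 from edgeR), and without any other single animal the gene stayed uncalled. With all animals and library size alone the gene was called as well, at 0.79 (adjusted p = 0.0108 from edgeR), where the median of all symbols was 0.48. Every animal had at least 210 reads of the gene.

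*PLOD2*, the lysyl hydroxylase of the collagen telopeptides, was higher in NASH with a wide spread. Its lowest, median and highest levels were 0.929, 4.76 and 9.09 CPM in controls and 8.32, 9.83 and 19.3 CPM in NASH. Control animal 5 was far below the rest with 13 reads, control animal 56 reached into the NASH range, and NASH animal 20 was the highest. The means were 4.97 ± 2.61 and 11.5 ± 4.1 CPM (SD, n = 6 each), or 1.21 ± 0.36 (SE) as a log2 fold change (adjusted p = 0.0132, edgeR). Without control animal 5 it was 1.01 (adjusted p = 0.0059 from edgeR), and without NASH animal 20 it was 1.0 (adjusted p = 0.0332 from edgeR), so the call held with each left out in turn.

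*LOXL1*, the family member tied to elastic fibres, had the largest change of the 5 and the lowest counts. Its lowest, median and highest levels were 0.808, 1.58 and 2.57 CPM in controls, from 12 to 56 reads, and 6.58, 8.67 and 16.6 CPM in NASH, from 188 to 489 reads. The lowest NASH animal was 2.56 times the highest control. The means were 1.55 ± 0.608 and 10.3 ± 3.84 CPM (SD, n = 6 each), or 2.7 ± 0.29 (SE) as a log2 fold change (adjusted p = 8.1e-06, edgeR). NASH animals 2 and 20 were again the highest, at 16.6 and 13.2 CPM. The gene passed a test against a log2 fold change of 1 as well (adjusted p = 0.000262 from edgeR), as did *SERPINH1* (adjusted p = 0.0305 from edgeR).

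*LOXL2*, whose product crosslinks collagens including type IV, moved less and more evenly. Its lowest, median and highest levels were 4.27, 5.03 and 5.9 CPM in controls and 10.3, 11.5 and 16.1 CPM in NASH, with no overlap. The means were 5.06 ± 0.615 and 12.3 ± 2.12 CPM (SD, n = 6 each), or 1.28 ± 0.12 (SE) as a log2 fold change (adjusted p = 3.17e-06, edgeR). The spread between animals, 12.1% of the mean in controls and 17.2% in NASH, was among the narrowest of the 5 genes. Against a log2 fold change of 1 it missed the threshold (adjusted p = 0.0507 from edgeR).

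The same NASH animals led several of the genes. Animals 2 and 20 held the 2 highest NASH values of *SERPINH1*, *LOXL1* and *LOXL2*, and animal 20 also had the highest *PLOD2*. They also had the most fibrillar collagen mRNA. The summed level of *COL1A1*, *COL1A2* and *COL3A1*, which encode the chains of types I and III collagen, was 1400 CPM in animal 20 and 1040 CPM in animal 2, against 481 to 656 CPM in the other 4 NASH animals and 125 to 181 CPM in controls. *P4HA1* had another order, with its highest NASH value of 29.5 CPM in animal 9. NASH animal 65 was the lowest for *LOXL1*, *LOXL2* and the collagen sum.

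**Figure D2:**
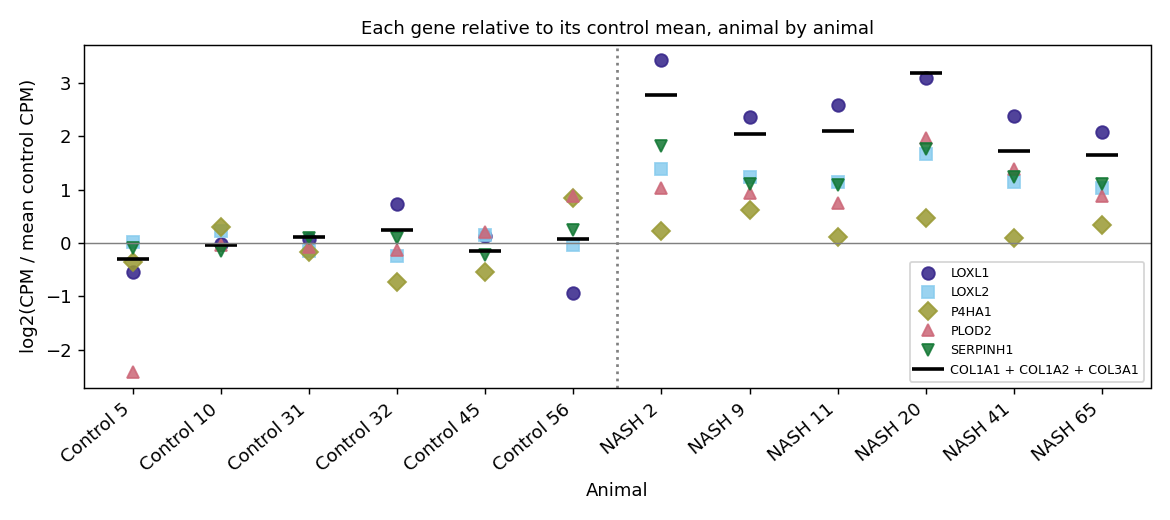
Level of each of the 5 genes in each animal relative to its control mean (vertical axis, log2 of the CPM ratio), with the summed *COL1A1*, *COL1A2* and *COL3A1* level as black bars. In NASH, *LOXL1* lies near or above the collagen bar, *SERPINH1*, *LOXL2* and *PLOD2* below it, and *P4HA1* nearest to 0; animals 2 and 20 are high for *SERPINH1*, *LOXL1* and *LOXL2*.

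Whether an enzyme moved in step with its substrate was asked with the log2 ratio of each gene to the summed *COL1A1*, *COL1A2* and *COL3A1* level within an animal, which needs no scaling between libraries. In all, 13 ratios to collagen or to a relative were tested with two-sided exact permutation tests over the animals and adjusted together, where 0.00216 is the smallest raw p that 6 animals against 6 can give. Relative to collagen, *P4HA1* was lower in NASH by 1.84 on the log2 scale, from −3.09 ± 0.6 to −4.93 ± 0.59 (SD, n = 6 each, exact p = 0.00216, adjusted p = 0.00703). *LOXL2* was lower relative to collagen, with a difference of −0.99 (adjusted p = 0.00703, exact test), and so was *SERPINH1*, with −0.89 (adjusted p = 0.00703, exact test). In these 3 ratios no NASH animal overlapped a control. The collagen sum itself was 125 to 181 CPM in controls and 481 to 1400 CPM in NASH. A gene with no change of its own would thus also be lower relative to collagen. These ratios show that the 3 genes rose less than collagen or did not rise, not that they fell. The share of all symbols that are lower relative to collagen was not tested. With *COL1A1* alone as collagen the differences were −3.87 for *P4HA1*, −3.01 for *LOXL2* and −2.92 for *SERPINH1*, each still called. The *SERPINH1* ratio was the tightest in controls, at −2.21 ± 0.15, and went to −3.1 ± 0.35 in NASH (SD, n = 6 each).

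*LOXL1* relative to collagen was not called. Its log2 ratio was −6.63 ± 0.49 in controls and −6.21 ± 0.29 in NASH (SD, n = 6 each), a difference of 0.43 (adjusted p = 0.0985, exact permutation test), and of 0.252 without control animal 56. Its direction changed with the denominator and with the scale of the values. With *COL1A1* alone, which had the largest rise of the collagens, the *LOXL1* ratio was lower in NASH, with a difference of −1.60 (adjusted p = 0.00469, exact test), and with rlog values of the summed collagens it was −0.35 (adjusted p = 0.00804, exact test). The *PLOD2* ratio to collagen differed by −0.86 and overlapped between groups (adjusted p = 0.0985, exact permutation test), and without control animal 5 it passed the threshold at −1.22 (adjusted p = 0.0121, exact test), as it did with rlog values or with *COL1A1* alone.

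**Figure D3:**
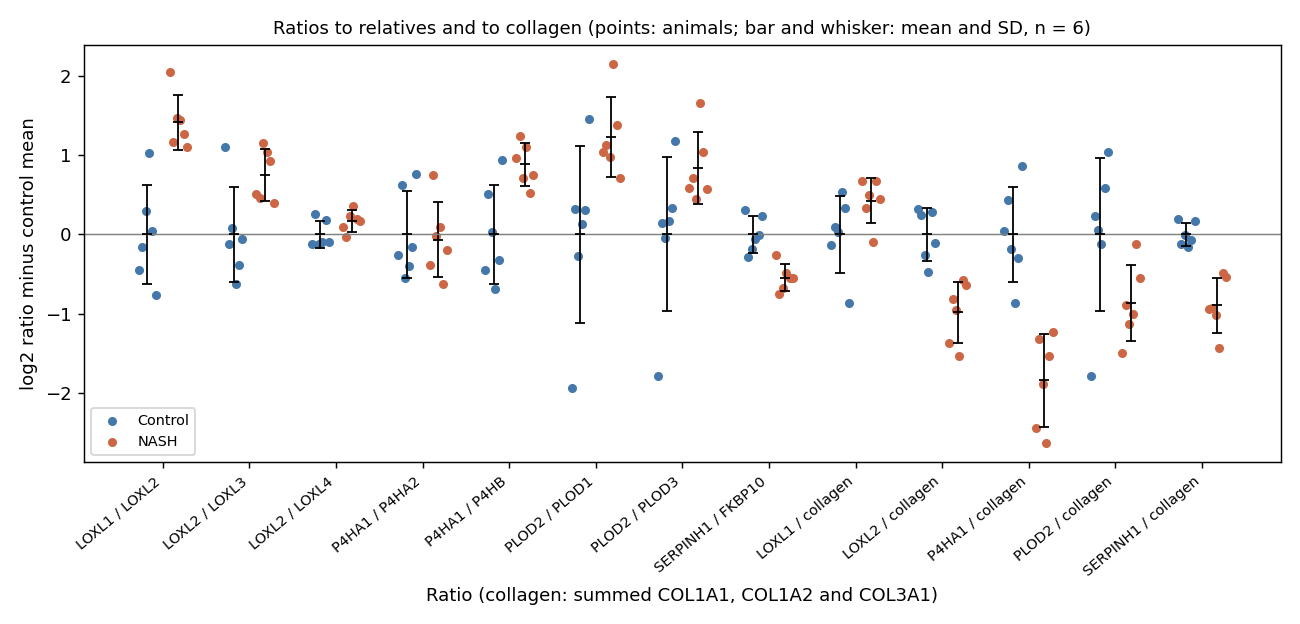
Log2 ratio of each gene to a relative or to summed collagen, minus the control mean of that ratio (vertical axis), in 6 control and 6 NASH animals; points are animals and the bar and whisker give mean and SD. The *LOXL2*, *P4HA1* and *SERPINH1* ratios to collagen fall without overlap, and the *LOXL1* to *LOXL2* ratio rises without overlap.

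Within the lysyl oxidase family, 4 of 5 genes were in the table, *LOX* itself being not analysed here. Of these, 3 were higher, at a family median log2 fold change of 1.19 against 0 over all symbols, of which 27.9% were higher. *LOXL3* was not called under TMM and was called with library size alone (0.93). By edgeR, DESeq2 and limma-voom alike, 0 of the 4 were lower, also at an unadjusted p under 0.05. *LOXL4* rose from 19.4 ± 1.36 to 41.6 ± 6.03 CPM (SD, n = 6 each), or 1.10 ± 0.10 (SE) as a log2 fold change (adjusted p = 1.5e-06, edgeR). *LOXL3* was at 1.7 ± 0.602 and 2.36 ± 0.543 CPM (SD, n = 6 each, adjusted p = 0.152 from edgeR). *LOXL1* rose more than *LOXL2*. Their log2 ratio went from −1.73 ± 0.62 to −0.32 ± 0.35 (SD, n = 6 each), a difference of 1.41, or 2.66-fold, without overlap (exact p = 0.00216, adjusted p = 0.00703). With rlog values the difference was 0.48 and still called. *LOXL2* against *LOXL4* differed by 0.17 (adjusted p = 0.0985, exact test), from a control range of −2.05 to −1.67 to a NASH range of −1.96 to −1.56. That difference was −0.035 with rlog values, and 0.225 without control animal 10 (adjusted p = 0.0442, exact test). *LOXL2* against *LOXL3* differed by 0.75 and narrowly missed the threshold (adjusted p = 0.0528, exact test); without control animal 5 the difference was 0.97 (adjusted p = 0.00703, exact test).

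Among the prolyl 4-hydroxylase subunits, *P4HA2*, the second alpha subunit, rose by 0.48 on the log2 scale (SE 0.17, edgeR adjusted p = 0.0266), from 17.2 ± 3.78 to 24 ± 4.96 CPM (SD, n = 6 each). The ratio of *P4HA1* to *P4HA2* differed by −0.07 between the groups (adjusted p = 0.851, exact permutation test), and leaving out single animals turned its sign. The ratio ranged from −0.48 to 0.83 in controls and from −0.56 to 0.82 in NASH. *P4HA3* was at 2.89 ± 0.951 and 2.94 ± 0.904 CPM (SD, n = 6 each). *P4HB*, the beta subunit, which is also protein disulphide isomerase, fell by 0.47 on the log2 scale under TMM (SE 0.08, edgeR adjusted p = 0.000354) but not with library size alone, where its log2 fold change was −0.001. The ratio of *P4HA1* to *P4HB* needs no scaling and rose by 0.88 (adjusted p = 0.0281, exact permutation test). That call was lost without control animal 32 or without NASH animal 2, 9 or 20, at adjusted p between 0.0516 and 0.0594 by the exact test.

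In lysyl hydroxylation and its partners, 4 of 7 genes were higher, 1 lower and 2 uncalled, at a median log2 fold change of 0.39, beside 27.9% of all symbols higher and 26% lower. *FKBP10*, a prolyl isomerase that works with lysyl hydroxylase 2, rose most, from 9.29 ± 1.57 to 34.9 ± 5.54 CPM (SD, n = 6 each), or 1.91 ± 0.13 (SE) as a log2 fold change (adjusted p = 2.74e-07, edgeR). *PLOD3* rose by 0.55 (SE 0.08, edgeR adjusted p = 0.000123), and so did *COLGALT1*, which adds galactose to hydroxylysine, by 0.39. *PLOD1*, the lysyl hydroxylase of the helix, was at 106 ± 21.2 and 118 ± 12.7 CPM (SD, n = 6 each, adjusted p = 0.342 from edgeR), and *COLGALT2* was also not called. *TMEM38B*, an endoplasmic reticulum cation channel needed for collagen modification, fell by 0.57 on the log2 scale under TMM and was not called with library size alone (log2 fold change −0.087). *PLOD2* relative to *PLOD1* rose by 1.23 (adjusted p = 0.0402, exact permutation test). This call was lost with any 1 of 10 animals left out, at adjusted p up to 0.0844 by the exact test, and kept without control animals 10 and 56 only. *PLOD2* relative to *PLOD3* differed by 0.84 (adjusted p = 0.0907, exact test), and without control animal 56 by 1.07 (adjusted p = 0.00469, exact test). Without control animal 5 it differed by 0.48 (adjusted p = 0.156, exact test).

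The prolyl 3-hydroxylases divided in another way. *P3H3* rose from 1.48 ± 0.629 to 6.36 ± 1.1 CPM (SD, n = 6 each), or 2.08 ± 0.25 (SE) as a log2 fold change (adjusted p = 1.76e-05, edgeR), and *P3H4* by 1.28 (SE 0.21, edgeR adjusted p = 0.000205). The products of both genes are known to work together with lysyl hydroxylase 1. *P3H1*, *CRTAP* and *PPIB*, which form the complex that 3-hydroxylates type I collagen, were not called under TMM, with log2 fold changes of 0.09, 0.17 and −0.01. With library size alone all 3 were called higher, at 0.57, 0.65 and 0.465, where the median of all symbols was 0.48. *CRTAP* was also called with upper-quartile factors (0.249, adjusted p = 0.0257 from edgeR). *P3H2* fell by 0.51 (adjusted p = 0.0393 from edgeR), a call that was lost with upper-quartile factors or library size alone.

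*SERPINH1* stood apart from most of the list of procollagen chaperones and export factors. Of its 13 genes in the table, 3 were higher, 2 lower and 8 uncalled, and the list's median was −0.01 on the log2 scale, beside 27.9% of all symbols higher and 26% lower. With library size alone 10 were higher and 1 lower, at a median of 0.46 against 0.48 over all symbols. The other rises were those of *SEC24D*, a coat protein of the vesicles that carry procollagen, by 0.51 (SE 0.10, edgeR adjusted p = 0.0011), and *KLHL12*, which enlarges these vesicles, by 0.15 (SE 0.06, edgeR adjusted p = 0.0332). *MIA3*, which loads procollagen into them, fell by 0.49 under TMM, though not with library size alone (−0.016). *MIA2*, whose row carries 7 symbols, fell by 0.945. The general chaperones *CALR*, *CANX*, *PDIA3* and *HSP90B1* were not called, with log2 fold changes between −0.21 and −0.01. *SERPINH1* rose less than *FKBP10*. Their log2 ratio went from 1.83 ± 0.23 to 1.29 ± 0.17 (SD, n = 6 each, exact p = 0.00433, adjusted p = 0.0113). The groups overlapped slightly, with ranges of 1.55 to 2.14 in controls and 1.08 to 1.58 in NASH.

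Of the procollagen-processing enzymes, *ADAMTS2*, which removes the amino-terminal propeptide, rose from 9.67 ± 1.32 to 40 ± 12.5 CPM (SD, n = 6 each), or 2.04 ± 0.19 (SE) as a log2 fold change (adjusted p = 2.8e-06, edgeR). It was the only 1 of the 6 tested to be called under TMM, while 2 were called higher with upper-quartile factors and 4 with library size alone, under which 3797 and 7603 of all 11896 symbols were higher. *BMP1*, which removes the carboxy-terminal propeptide, was at 99.2 ± 28.2 and 97.6 ± 7.74 CPM (SD, n = 6 each), and its enhancer *PCOLCE* was at 24.1 ± 2.04 and 28 ± 3.4 CPM (SD, n = 6 each, adjusted p = 0.057 from edgeR). Over all 6 lists of collagen-modifying genes without the 5 genes described here, 10 of 35 were higher, 5 lower and 20 uncalled, with a median log2 fold change of 0.13, beside 27.9% of all symbols higher and 26% lower. With library size alone 26 were higher and 1 lower, at a median 0.13 above that of all symbols.

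**Figure D4:**
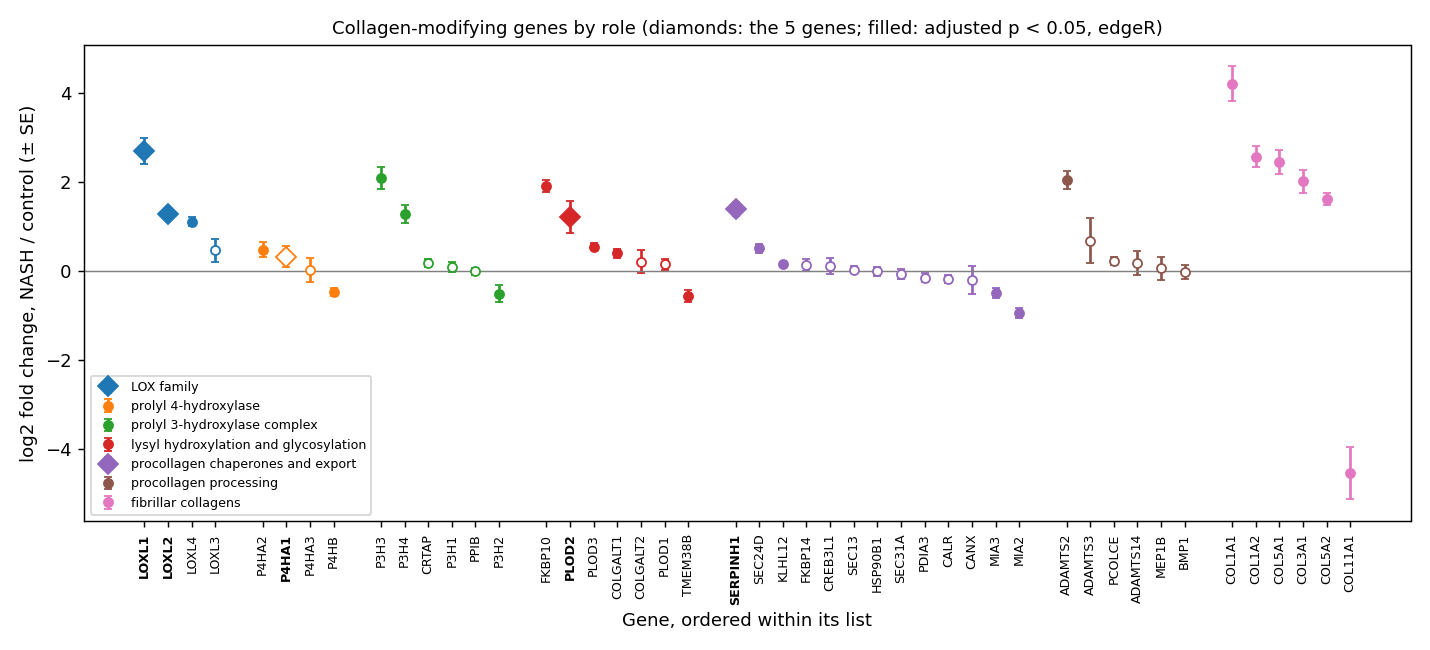
Log2 fold change in NASH over control with its standard error (vertical axis) for the collagen-modifying genes and the fibrillar collagens, grouped by role. Diamonds mark the 5 genes and filled symbols an adjusted p under 0.05 by edgeR under TMM; *LOXL1* at 2.7 is the highest of the modifying genes, and *COL1A1* at 4.21 the highest of the collagens.

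All 6 fibrillar collagens in the table, chains that these proteins act on, were called, as were 53.9% of all symbols. *COL1A1*, *COL1A2*, *COL5A1*, *COL3A1* and *COL5A2* rose, with log2 fold changes from 4.21 to 1.62, and *COL11A1*, a minor chain best known from cartilage, fell by 4.56. Of the genes of ascorbate, copper and iron supply, 1 of 9 was higher (3 by DESeq2 or with upper-quartile factors) and 5 were lower under TMM, at a median of −0.48, beside 27.9% and 26% of all symbols. With library size alone 4 were higher and 2 lower, at a median of 0, where that of all symbols was 0.48. *SLC23A1*, an epithelial ascorbate transporter, fell by 0.77 (SE 0.08, edgeR adjusted p = 4e-06), and the copper chaperone *CCS* by 1.21 (SE 0.08, edgeR adjusted p = 1.75e-07), and both also fell with library size alone. *ATP7B*, *ATOX1* and *SLC31A1*, which carry copper, fell under TMM and had log2 fold changes between −0.03 and 0 with library size alone. *ATP7A*, the pump that brings copper to secreted enzymes such as the lysyl oxidases, was at 21.9 ± 3.34 and 23.1 ± 1.19 CPM (SD, n = 6 each, adjusted p = 0.497 from edgeR). *CYB561*, a transmembrane ascorbate-dependent reductase, rose by 2.58 (SE 0.15, edgeR adjusted p = 8.35e-08).

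*P4HA1*, *PLOD2* and *LOXL2* are known targets of hypoxia-inducible factors, and *SERPINH1* of heat shock factor. Of the hypoxia list, 20 of 23 genes were in the table, of which 9 were higher, 4 lower and 7 uncalled, at a median of 0.17, where 27.9% of all symbols were higher and 26% lower. They ran from −0.45 for *ARNT* to 3.2 for *PFKFB3*, a glycolytic regulator. With library size alone 15 were higher and 0 lower, at a median 0.17 above that of all symbols. Of the heat shock list, 12 of 15 genes were in the table. By edgeR 0 were higher and 2 lower, *HSPA1A* and *HSPA1B*, which share a count row and fell by 0.91. At an unadjusted p under 0.05, 1 was higher, as was 1 by DESeq2 and 0 by limma-voom after adjustment, and with library size alone 5 were higher, at a list median of 0.35 against 0.48 over all symbols, of which 7603 of 11896 were then higher. The list's highest value was 0.23, for *HSP90AA1*, which was not called. The part of hypoxia or heat shock signalling in the changes of the 5 genes was not tested.

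**Figure D5:**
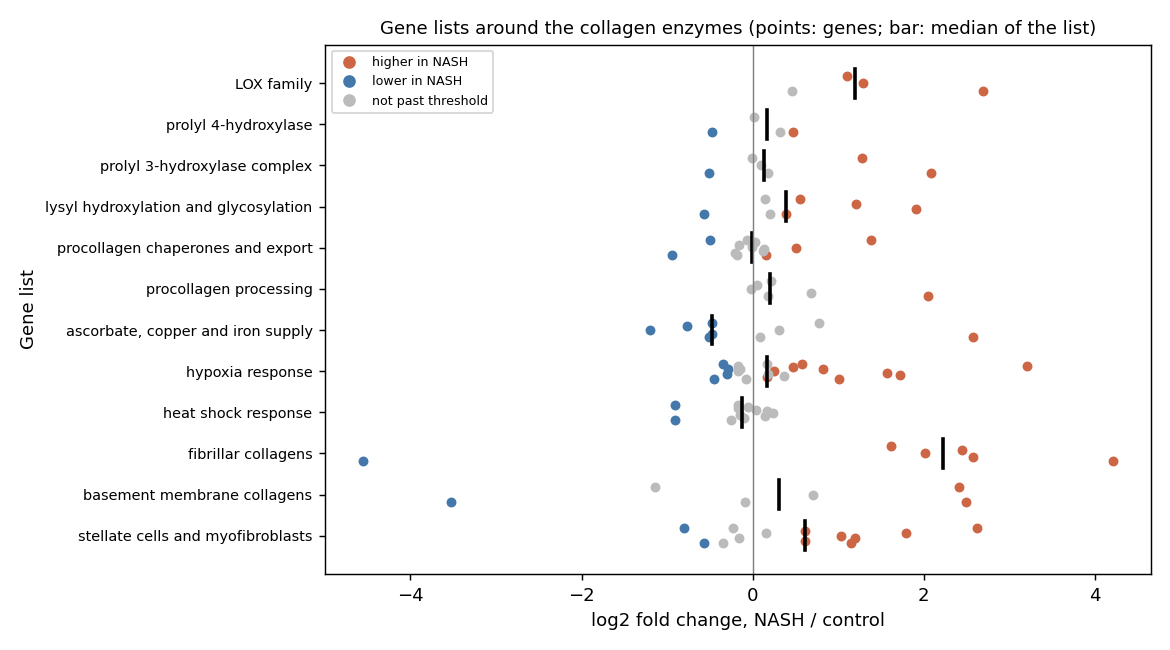
Log2 fold change in NASH over control (horizontal axis) of every tested gene of 12 lists around collagen folding and crosslinking; points are genes coloured by edgeR's call under TMM, and the bar is the median of the list. The lysyl oxidase family and the fibrillar collagens have medians of 1.19 and 2.23, whereas the other collagen-modifying lists have medians between −0.01 and 0.39.

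Lists of cell markers were counted beside these genes, where 27.9% of all symbols were higher and 26% lower under TMM. Of 13 markers of stellate cells and myofibroblasts, 7 were higher and 2 lower, and the list's median was 0.61 on the log2 scale, and their summed level was 795 to 998 CPM in controls and 1360 to 2190 CPM in NASH. *RGS5* rose most, by 2.62, followed by *PDGFRB* with 1.79, whereas *LRAT* and *POSTN* fell by 0.57 and 0.80 under TMM and were not called with library size alone. All 5 cholangiocyte markers in the table were higher, from 73.2 to 115 CPM in sum in controls and from 302 to 539 CPM in NASH. Of 5 macrophage markers, 3 were higher and 1 lower, at sums of 245 to 368 and 757 to 962 CPM, and of 7 endothelial markers 3 were higher and 1 lower, at sums of 503 to 690 and 570 to 829 CPM. Of 7 lymphocyte markers, 3 were higher and 1 lower, at sums of 59.3 to 113 and 42.7 to 76.3 CPM. Most of the lymphocyte sum was *CD3E*, the 1 marker that fell, from 69 ± 21.6 to 33 ± 10.7 CPM, whereas *CD79A* of B cells rose from 5.9 ± 1.02 to 16.5 ± 4.37 CPM (SD, n = 6 each). *MS4A1* of B cells and *CD8A* of T cells rose as well, by 1.12 and 1.29 on the log2 scale. *CD3D*, *CD2* and *CD4* were not called, with log2 fold changes of −0.132, 0.04 and −0.083. *CD3D* and *CD2* had means of 0.982 and 2.02 CPM in controls, far below *CD3E*. The lower sum in NASH thus followed *CD3E* and not the rest of the list. Most of the macrophage sum in NASH was *GPNMB*, which rose from 54 ± 20.2 to 498 ± 64 CPM. *CD68* and *TREM2* rose as well, by 0.69 and 7.22 on the log2 scale, the latter from near 0 in controls (0.0688 ± 0.169 CPM), while *MARCO* of Kupffer cells fell from 80.8 ± 30.5 to 33.4 ± 12 CPM (SD, n = 6 each) and *CSF1R* was not called under TMM (0.41). The part of these cells in the changes of the 5 genes was not tested.

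The profiles nearest to each gene were sought among 11528 symbols with a mean of at least 1 CPM, as the mean absolute difference in log2 CPM over the 12 animals after the control mean of each gene had been subtracted. For *LOXL1* these were *CAPG* (0.246), *COL1A2* (0.289) and *COL5A1* (0.297), 2 of which are fibrillar collagen chains. *SERPINH1* was nearest to *VASP* (0.123), *SPARC* (0.129), which encodes a collagen-binding matrix protein, and *GPX8* (0.146), a peroxidase of the endoplasmic reticulum. *LOXL2* was nearest to *APAF1* (0.11), *GOLM1* (0.113) and *ASAH1* (0.114). *PLOD2* was nearest to *QPCT* (0.217), *NCKAP1L* (0.26) and *PTGFRN* (0.293), all of which were also lowest in control animal 5. *P4HA1* was nearest to *SNCAIP* (0.174), *LURAP1* (0.185) and *SUSD3* (0.187), of which only *LURAP1* was called. Among the 5 genes themselves, *LOXL2* and *SERPINH1* had the closest profiles (0.216) and *LOXL1* and *P4HA1* the most distant (1.509). The measure takes in the difference between the groups, so genes with like fold changes lie near one another. *CAPG*, *COL1A2* and *COL5A1* had log2 fold changes of 2.54, 2.57 and 2.45, beside 2.7 for *LOXL1*. Shared regulation was not tested.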

How the data were processed

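The authors trimmed single reads of a stranded mRNA library with Trimmomatic 0.38.0, mapped them with HISAT2 2.1.0 to Cavpor3.0 leaving out reads with several matches, and used StringTie 1.3.6 to assemble transcripts and count them. They deposited raw counts per locus without symbols. The authors also deposited log2 (rlog) values from DESeq2 for human orthologue symbols with at least 200 counts over the animals. Symbols were tied to count rows by recomputing rlog values with DESeq2 until they met the deposited ones, with a largest difference of 8.35e-07 on 11031 rows for 11896 symbols. Each animal is 1 sample, grouped by its label. The main test of the counts was that of edgeR 4.0.16 in R 4.3.3 (TMM factors, total of the whole table as library size, robust glmQLFit, glmQLFTest), with DESeq2 1.42.0 and limma 3.58.1 as alternatives. The standard error is the absolute log2 fold change over the square root of F. Log2 ratios used a prior count of 2 and exact permutation tests over 924 splits. TMM assumes that most genes do not change. Depth ranged from 16980274 to 33091460 counts per animal. The 5 genes and the gene lists were chosen with earlier results of these data known. Named were the 5 genes, the genes of the enzyme lists, the extremes of the other lists and the 3 nearest profiles; other genes named from the lists, such as *ATP7A* and *PDGFRB*, were chosen after their values were seen. Alternatives were other scaling factors, tools, filters, thresholds and prior counts, rlog values, *COL1A1* alone and each animal left out. Procedures were tested on simulated data. Figures used Python 3.11.15 and matplotlib 3.10.9.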

Additional observations from a re-analysis of the deposited data

Results flagged for a closer look

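Among 36 named genes and 13 ratios in both groups, 98 sets of 6 animals were examined for a single animal far from the others by Dixon's criterion, and 5 met it, where chance gives about 1 in 20. *PLOD2* had a log2 CPM of 0.01 in control animal 5, and the gap to the next control took a share of 0.69 of the range of the group. The same animal was the lone low value of *QPCT* (−0.47), *NCKAP1L* (2.13) and *PTGFRN* (2.92) on the log2 CPM scale. These 3 genes were picked for their likeness to *PLOD2* over the same animals, so they are not separate evidence. Over all symbols, control animal 5 was a lone low value 389 times and the other animals between 66 and 133 times. *ASAH1* was apart in control animal 45, at a log2 CPM of 5.96 as the highest of its group.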

How the results depend on the processing

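*LOXL1* and *SERPINH1* kept their direction and their call under all 22 alternatives run. *P4HA1* was called with library size alone (0.79, or 0.31 above the median of all symbols) and without control animal 56, and its log2 fold change ranged from 0.21 to 0.57 with each animal left out. *PLOD2* (1.21) lost its call at a threshold of 0.01 and, with *LOXL2* (1.28), in the test against a log2 fold change of 1 (adjusted p = 0.74 and 0.0507 from edgeR). With library size alone, 31 of 40 collagen-modifying genes were called higher and 1 lower, against 14 and 5, where 7603 and 911 of all 11896 symbols were, against 3318 and 3093. In edgeR's test against 1 they were 5 and 0 (7 and 0 at an unadjusted p under 0.05; 14 and 5 by DESeq2 against no change), and 1100 symbols were called over all, against 6411. With every counted row tested 10813 rows were called, and with filterByExpr 9823. Both were drawn from a count table of 39061 rows in place of 11896 symbols, so these counts are not to be read as shares beside 6411. With each animal left out, the ratio of *LOXL2* to *LOXL3* ranged from 0.62 to 0.97, of *LOXL2* to *LOXL4* from 0.13 to 0.225 (called without control animal 10, adjusted p = 0.0442, exact test), of *P4HA1* to *P4HA2* from −0.23 to 0.085 (above 0 also at 0.058 and 0.048), of *P4HA1* to *P4HB* from 0.74 to 1.07, of *PLOD2* to *PLOD1* from 0.84 to 1.52, of *PLOD2* to *PLOD3* from 0.48 to 1.07, of *PLOD2* to collagen from −1.22 to −0.65 and of *LOXL1* to collagen from 0.252 to 0.535. With a prior count of 5 the *LOXL2* to *LOXL3* difference was 0.76 and called. With rlog values it was 0.49 and called, that of *LOXL2* to *LOXL4* was −0.035, of *LOXL1* to collagen −0.35 and of *PLOD2* to collagen −0.83, the latter 2 called. Other ratios called in the main test kept their call with rlog values at differences down to 0.536 for *P4HA1* to *P4HB*, 0.511 for *PLOD2* to *PLOD1* and −0.241 for *SERPINH1* to *FKBP10*. With *COL1A1* alone, *LOXL1* to collagen was −1.60 and *PLOD2* to collagen −2.885, both called. The cause of these changes was not tested. No paired analysis was possible because the groups share no animal number.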

Other observations

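Of 6 basement membrane collagens in the table, among them type IV collagen, a substrate of *LOXL2*, 2 were higher, 1 lower (2 by limma-voom) and 3 uncalled, beside 27.9% of all symbols higher and 26% lower. *COL4A1* rose from 35.8 ± 5.84 to 202 ± 58.4 CPM and *COL4A2* from 21 ± 4.26 to 112 ± 28.4 CPM (SD, n = 6 each), log2 fold changes of 2.49 and 2.41 (adjusted p = 4.79e-07 and 7.24e-07 from edgeR). *COL4A5* fell by 3.53, from 10.8 ± 3.33 to 0.926 ± 0.245 CPM (SD, n = 6 each, adjusted p = 1.49e-07 from edgeR). *COL18A1*, the abundant collagen of hepatic basement membranes, was at 800 ± 57.9 and 749 ± 50.3 CPM (SD, n = 6 each) and not called. *COL4A4* and *COL4A6* were not called either, with log2 fold changes of 0.705 (SE 0.695, adjusted p = 0.414 from edgeR) and −1.14 (SE 0.56, adjusted p = 0.103 from edgeR).

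Of the partners of *LOXL1* in elastic fibres, *FBLN5*, which tethers the enzyme to elastin, rose by 1.83 (SE 0.14, adjusted p = 5.05e-07 from edgeR) and *EFEMP2* by 1.28 (SE 0.17, adjusted p = 4.28e-05 from edgeR), with no overlap between groups. *FBN1* was at 64.4 ± 30.2 and 78.3 ± 23.5 CPM (SD, n = 6 each) and was not called. Of all symbols, 27.9% were called higher, and in 18.4% all NASH animals lay above all controls. *ELN*, the elastin gene itself, was not analysed here.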
